A study of Mus musculus with 6 samples.

Results

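The genes described here are the 53 mouse genes for DNA replication licensing and the replication fork, of 49315 genes in the table of counts. They were chosen by name, as subunits of the complexes that mark, load, start and run replication forks, and the rule used no measured value, although earlier results of these data were known when the list was drawn up. All 53 were found in the table and all 53 passed the filter on low counts, among 12274 genes tested. The RNA came from RAW264.7, a mouse macrophage-like cell line labelled as wild type, so that both groups share the same genotype. Cells of the control group received DMSO, the solvent, and cells of the other group received 4 μg/mL of SKI-II, a synthetic compound described as inhibiting sphingosine kinases, for 24 h, with 3 libraries in each group. Poly(A) RNA was sequenced, and the values below are CPM, the deposited read counts scaled to a common library size with TMM, a method that sets the bulk of genes level between libraries.

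The libraries held 12495957 to 20050677 counts and 16890 to 18196 genes with a count. All 10 macrophage markers examined were detected in every library, with the receptor Csf1r at 1029.7 to 1092 CPM in DMSO and 897 to 1065 CPM in SKI-II. Of these 10, 3 were lower and 2 higher with SKI-II at an adjusted p below 0.05, where 19.7% of all tested genes were lower and 18.4% higher. Lyz2 had the lowest log2 fold change of the 10 (-1.26) and Fcgr1 the highest (2.17). Their summed level lay at 8871 to 12924 CPM in DMSO and 5681 to 8049 CPM in SKI-II, and this direction rested on Lyz2: the other 9 summed to 3226 to 3538 CPM in DMSO and 3911 to 4229 CPM in SKI-II. Of 6 osteoclast markers, 2 of the 4 tested were lower, none was higher, Calcr was at 0 in every library, and the summed level was 61.2 to 82.3 CPM in DMSO and 33.9 to 41.5 CPM in SKI-II. Ctsk had the lowest log2 fold change of these 4 (-1.46) and Dcstamp, which did not pass the test, the highest (-0.67). The part of these shifts in the results below was not tested. The lists of B cell, T cell, fibroblast and epithelial markers summed to at most 0.349, 0.418, 1.32 and 0 CPM in a library.

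Before a cell copies its DNA, the origin recognition complex (ORC) binds origins, and Cdc6 and Cdt1 help it to load the ring-shaped MCM2-7 helicase, a step called licensing. In S phase the kinase Cdc7 with Dbf4, and factors such as Cdc45, Ticrr and GINS, turn the loaded rings into active helicases. Polymerase alpha-primase lays primers, polymerases epsilon and delta extend them, the sliding clamp Pcna and its loader hold the polymerases on DNA, and histone chaperones rebuild chromatin behind the fork. Many of these genes are known targets of E2F transcription factors and are transcribed most in late G1 and S phase, so their mRNA is widely used as a mark of proliferating cells. In a bulk library, fewer cells in S phase and less mRNA per cell cannot be told apart.

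The promoters of 5 members are shown first. They were picked after the fold changes were seen and do not stand for all members. Mcm5 and Mcm6 fell most among the MCM2-7 genes, Mcm3 fell less and Mcm2 did not pass the test. Mcm7 (log2 fold change -2.38) fell close to Mcm6 (-2.44) and is not shown, and Mcm4 had no promoter window. Pola1 had E2F letters before its start, which the windows found for the other polymerase and primase genes did not hold there. Pole and Prim2 had no window, so that nothing is known here of their promoters. Each line holds the 180 bases just before the transcription start annotated by RefSeq on GRCm38.p6, read 5′ to 3′ on the strand of the gene. Capitals mark matches on either strand to E2F letters (TTTGGCGC, TTTCGCGC, TTTCCCGC or TTTGCCGC) and to CCAAT, the letters bound by NF-Y. The stretches lie at chr6:88898781-88898960 (minus strand) for Mcm2, chr1:20820313-20820492 (minus) for Mcm3, chr8:75109329-75109508 (plus) for Mcm5, chr1:128359706-128359885 (minus) for Mcm6 and chrX:93632156-93632335 (minus) for Pola1, and none of them overlaps an annotated exon.
Mcm2: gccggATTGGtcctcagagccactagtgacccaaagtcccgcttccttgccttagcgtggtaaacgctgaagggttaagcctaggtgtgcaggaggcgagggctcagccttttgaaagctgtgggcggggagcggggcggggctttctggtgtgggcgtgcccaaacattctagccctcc
Mcm3: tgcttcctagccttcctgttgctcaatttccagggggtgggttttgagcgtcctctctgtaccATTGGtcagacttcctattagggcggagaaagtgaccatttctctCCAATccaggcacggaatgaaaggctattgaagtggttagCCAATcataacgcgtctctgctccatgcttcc
Mcm5: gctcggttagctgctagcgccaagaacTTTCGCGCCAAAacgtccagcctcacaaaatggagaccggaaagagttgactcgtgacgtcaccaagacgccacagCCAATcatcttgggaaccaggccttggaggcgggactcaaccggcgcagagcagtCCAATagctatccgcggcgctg
Mcm6: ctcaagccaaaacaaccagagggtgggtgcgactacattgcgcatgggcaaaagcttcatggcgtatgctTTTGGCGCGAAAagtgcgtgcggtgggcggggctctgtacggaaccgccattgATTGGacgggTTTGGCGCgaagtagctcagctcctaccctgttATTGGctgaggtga
Pola1: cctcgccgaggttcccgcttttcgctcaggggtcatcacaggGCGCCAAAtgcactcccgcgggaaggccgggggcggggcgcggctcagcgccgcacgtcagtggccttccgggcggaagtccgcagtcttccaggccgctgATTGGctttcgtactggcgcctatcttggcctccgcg

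In Mcm5 the 2 E2F matches begin 153 and 149 bases before the start and overlap, so that they form a single run of capitals. Mcm6 has 3 E2F matches, of which 2 overlap, and Pola1 has 1, beginning 138 bases before the start. Mcm3 has none in this stretch but has 3 CCAAT matches, and its 2 E2F matches begin 19 and 38 bases after the start. Mcm2 has 1 CCAAT match and no E2F match here or in the whole promoter window. A match is a description of letters and not a binding site, and its absence says only that these letters are not in the window.

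Over promoter windows of 300 bases, from 250 before to 50 after the start, 44 of the 53 members had a window and 17 of those 44 (38.6%) held E2F letters, against 704 of 27025 genes with a window (2.6%). CCAAT was held by 26 of the 44 members (59.1%) and by 41.1% of all genes. The letters of the cell cycle homology region, TTTGAA or TTCGAA, were held by 10 of the 44 members (22.7%) and by 21.7% of all genes, so that this share was close to that of all genes. E2F letters were found in 16 of the 38 members with a window that were lower with SKI-II (42.1%) and in 1 of the 6 that were not called, Orc3. Most of the members that fell and had a window therefore held none of these letters. Gins3 and Orc3 held E2F letters beginning 41 bases before the start, with log2 fold changes of -0.81 and 0.01. Asf1b, Cdc45 and Mcm10 held none in their windows, with log2 fold changes of -2.03, -2.09 and -2.19. These genes were named after their values were seen, and a link between the letters and the size of the fall was not tested.

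With SKI-II, 47 of the 53 members were lower and 0 were higher at an adjusted p below 0.05 (edgeR quasi-likelihood F test with Benjamini-Hochberg adjustment over all 12274 genes). Among all tested genes 19.7% were lower and 18.4% were higher. The test without adjustment put 48 members lower and 1 higher at p below 0.05, and DESeq2 and limma-voom each put 47 lower and 0 higher. Of the 47, 38 fell by more than 1 on the log2 scale, where 7.44% of all tested genes were lower by that much, and 10 fell by 2 or more, where the share of all genes was 1.85%. In the other direction 0 members rose by more than 1, a rise seen in 8.28% of all tested genes. The fitted change was below 0 in 50 members and in 49.8% of all tested genes. The median log2 fold change was -1.45 over the members and 0.00 over all tested genes. The methods describe biological replicates for the PCR assay whose treatment the sequencing followed, while the labels of the libraries do not name their cultures, so that the p-values measure the spread between these samples.

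The fall was visible in each library. The members together took 0.511%, 0.466% and 0.382% of the counts of DMSO 1, 2 and 3, and 0.163%, 0.191% and 0.168% of those of SKI-II 1, 2 and 3. In 48 members all SKI-II libraries lay below all DMSO libraries, as they did in 25.5% of all tested genes, and in Orc2 alone all SKI-II libraries lay above, as they did in 24.8% of all tested genes. Within the groups the libraries also held an order. DMSO 3 was the lowest of its group for 39 members and DMSO 1 the highest for 36, while SKI-II 1 was the lowest of its group for 35 and SKI-II 2 the highest for 37. The spread within a group was small beside the fall, with a median coefficient of variation over members of 11.7% in DMSO and 12.6% in SKI-II.

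**Figure D1:**
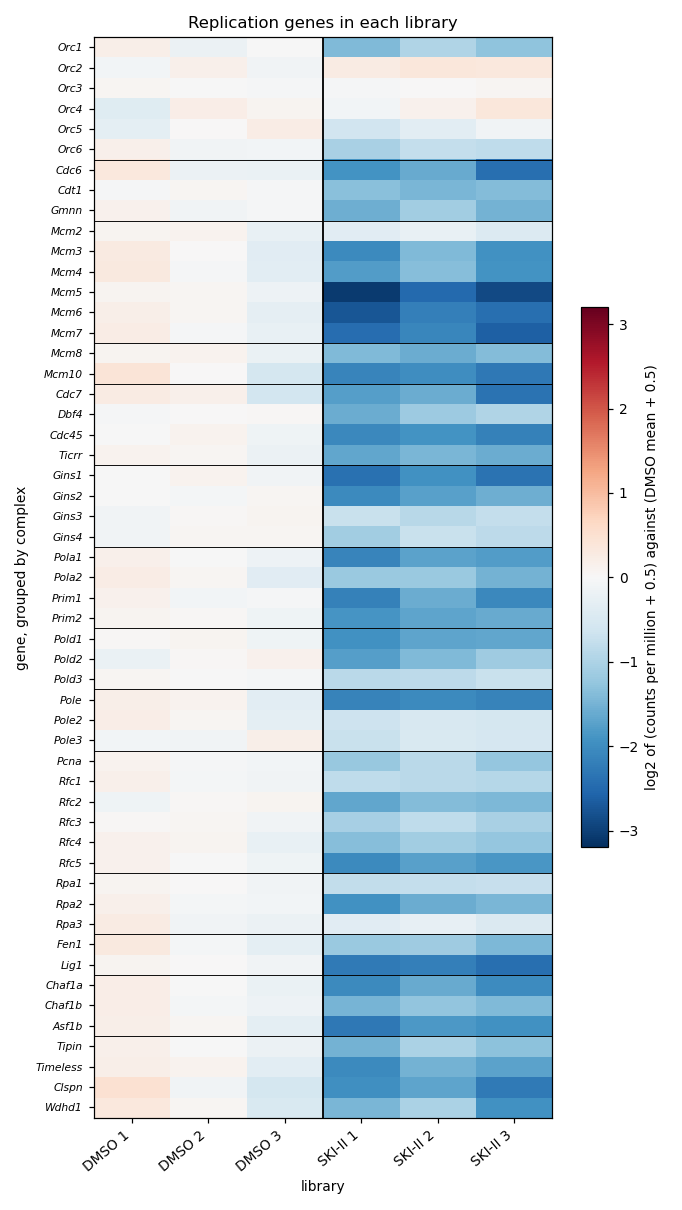
Each cell is the log2 of CPM + 0.5 in a library (columns) against the mean of the DMSO libraries for a member (rows, separated by complex). Most rows turn blue in all 3 SKI-II libraries, while Orc2, Orc3 and Orc4 do not and Mcm2, Orc5 and Rpa3 do so faintly.

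The 6 genes of the origin recognition complex, which marks origins for the loading of the helicase, divided into 2 that fell and 4 that were not called, with a median log2 fold change of -0.17. Orc1, the subunit whose level changes through the cell cycle, stood at 13.02, 10.003 and 11.3 CPM in DMSO 1, 2 and 3 and at 3.98, 5.65 and 4.42 CPM in SKI-II 1, 2 and 3. Its log2 fold change was -1.29 (SE 0.22, adjusted p = 0.00167), and the groups did not overlap. Orc6 fell by 0.90 on the log2 scale (SE 0.17, adjusted p = 0.00278). Orc2 had the highest log2 fold change of all 53 members.

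Orc2 stood at 48.6, 57.9 and 47.9 CPM in DMSO and at 62.1, 66.0 and 65.3 CPM in SKI-II, so that every SKI-II library was above every DMSO library. Its log2 fold change of 0.33 (SE 0.13) did not pass the adjusted test (adjusted p = 0.0651). Orc2, at chromosome 1, 58462771 to 58505109 of GRCm38, shares 29.8% of its exon bases with Nif3l1 on the opposite strand, which was higher by 0.54 on the log2 scale (adjusted p = 0.0209), and the strand setting of the counting is not given in the sources used here. If strand was not used, reads of the 2 genes cannot be told apart in the shared part.

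Orc3 lay at 49.5, 46.8 and 45.9 CPM in DMSO and at 45.8, 47.8 and 49.6 CPM in SKI-II, with a log2 fold change of 0.01 (SE 0.12, adjusted p = 0.954). Orc4 lay at 22.9, 35.3 and 32.3 CPM in DMSO and at 28.3, 33.1 and 39.0 CPM in SKI-II, with a log2 fold change of 0.15 (SE 0.19, adjusted p = 0.564). In both genes the groups overlapped. Orc5 lay at 35.2, 44.4 and 52.1 CPM in DMSO and at 28.5, 34.7 and 40.4 CPM in SKI-II, an overlap again, with a log2 fold change of -0.34 (SE 0.18, adjusted p = 0.163). Leaving out DMSO 1, the lowest of the DMSO libraries for Orc5, moved it to an adjusted p of 0.0492. The log2 ratio of Orc1 to Orc4 was lower by 1.37 in SKI-II, and its groups did not overlap (exact two-sided permutation test p = 0.1, the smallest that 3 against 3 allows, 0.15 after adjustment over 6 ratios).

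The 3 licensing factors all fell, with a median log2 fold change of -1.40. Cdc6, the ATPase that joins ORC at origins, stood at 33.1, 22.8 and 22.3 CPM in DMSO and at 6.56, 8.21 and 4.47 CPM in SKI-II (log2 fold change -2.03, SE 0.25, adjusted p = 0.000267). Cdt1, the helicase loader, fell by 1.40 on the log2 scale (SE 0.11, adjusted p = 1.94e-05). Its inhibitor Gmnn, geminin, stood at 58.2, 49.7 and 52.1 CPM in DMSO and at 17.7, 24.4 and 18.3 CPM in SKI-II, and also fell by 1.40 (SE 0.16, adjusted p = 0.000146). The groups did not overlap in any of the 3. The fitted changes of the loader and its inhibitor were equal to the printed digits, and the log2 ratio of Cdt1 to Gmnn was 1.57 ± 0.17 in DMSO and 1.56 ± 0.31 in SKI-II (SD, n = 3, exact permutation test p = 1).

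Of the 6 MCM2-7 genes, which encode the subunits of a ring with 1 copy of each, 5 fell and Mcm2 did not pass the test. The median log2 fold change of the 6 was -2.07. Mcm5 had the lowest log2 fold change of the 53 members and rank 50 from the lowest among all tested genes. It stood at 319, 312 and 267 CPM in DMSO and at 35.5, 53.2 and 40.3 CPM in SKI-II, with a mean of 14.4% of the DMSO mean (log2 fold change -2.80, SE 0.16, adjusted p = 7.65e-06). The lowest DMSO library was far above the highest SKI-II library. Mcm6 (log2 fold change -2.44), Mcm7 (-2.38), Mcm3 (-1.77) and Mcm4 (-1.68) fell with adjusted p between 1.5e-05 and 0.00019.

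Mcm2, the subunit with a tail that also binds histones, stood at 226, 227 and 179 CPM in DMSO and at 163, 179 and 154 CPM in SKI-II. The lowest DMSO library and the highest SKI-II library were level to within the printed digits, and by the values the groups overlapped. The log2 fold change was -0.35 (SE 0.13, adjusted p = 0.064). Without DMSO 3, the DMSO library in which Mcm2 was lowest, the log2 fold change was -0.45 with an adjusted p of 0.021, so that leaving out that library was among the settings that changed the call on Mcm2. With and without DMSO 3 the fitted change was smaller than that of each of the other 5 subunits.

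**Figure D2:**
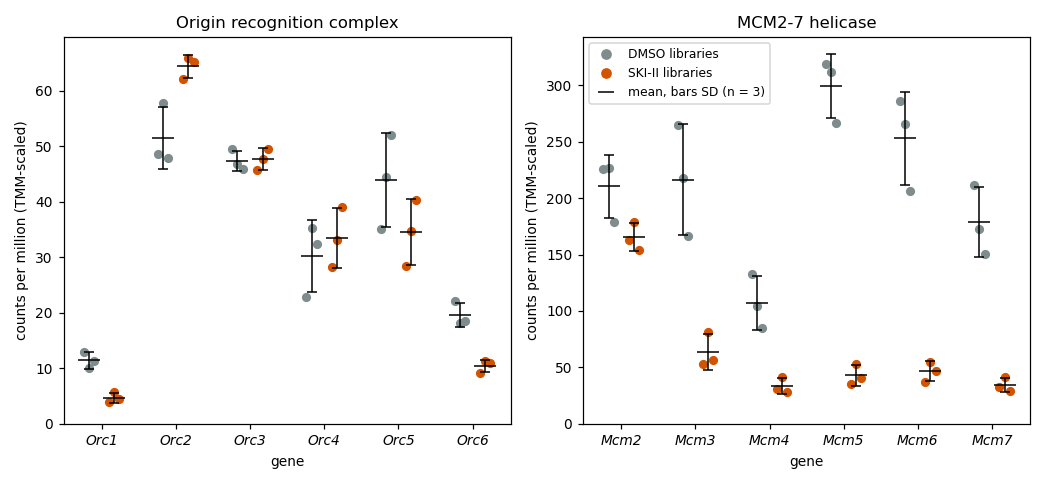
CPM of each ORC gene (left) and each MCM2-7 gene (right) in every library, with the mean and SD of each group (n = 3), both axes starting at 0. Mcm3 to Mcm7 stand well apart between the groups while Mcm2 overlaps, and among the ORC genes Orc1 and Orc6 are lower and Orc2 is higher in every SKI-II library.

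The balance of the helicase mRNAs shifted with this. Per kilobase of exon, Mcm5 was the most abundant of the 6 in DMSO (74.9 ± 7.10 CPM per kb) and Mcm2 (30.2 ± 3.97) lay close to Mcm4 (29.9 ± 6.71), a difference within their spread. This order in DMSO depended on the length used: per kilobase of the principal transcript, Mcm2 (62.4 ± 8.19) stood above Mcm4 (29.9 ± 6.71), and Mcm5 (88.5 ± 8.39) and Mcm6 (86.9 ± 14.2) did not differ beyond their spread. In SKI-II, per kilobase of exon, the level of Mcm2 (23.8 ± 1.80) was the highest of the 6, above Mcm3 (16.9 ± 4.19), Mcm5 (10.8 ± 2.29), Mcm6 (9.97 ± 1.89), Mcm4 (9.31 ± 1.90) and Mcm7 (7.76 ± 1.49), and each of these 5 overlapped the next in this order within its spread (mean ± SD, n = 3). Mcm2 was also the highest of the 6 in SKI-II per kilobase of the principal transcript (49.1 ± 3.71). Of the summed level of the 6 per kilobase of exon, Mcm2 made up 9.85%, 11.1% and 10.7% in DMSO 1, 2 and 3 and 33.3%, 27.5% and 30.9% in SKI-II 1, 2 and 3. The share of Mcm5 went from 26.3% ± 1.86 to 13.6% ± 0.875. Mcm2 was picked for this description after its values were seen, and the share was not tested.

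The relatives Mcm8, which acts in homologous recombination, and Mcm10, which helps to start the fork, both fell. Mcm8 stood at 29.5, 30.0 and 23.7 CPM in DMSO and at 10.04, 8.92 and 10.3 CPM in SKI-II (log2 fold change -1.51, SE 0.16, adjusted p = 0.000121). Mcm10 stood at 50.3, 37.8 and 25.3 CPM in DMSO and at 8.37, 9.16 and 7.31 CPM in SKI-II (log2 fold change -2.19, SE 0.24, adjusted p = 0.000135). The DMSO libraries of Mcm10 were widely spread, yet the groups stayed apart. The log2 ratio of Mcm5 to Mcm8 was lower by 1.34 in SKI-II (exact two-sided permutation test p = 0.1, the smallest possible, adjusted 0.15).

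All 4 genes of helicase activation fell, with a median log2 fold change of -1.79. Cdc45, the partner of MCM2-7 in the active helicase, stood at 50.3, 54.9 and 45.9 CPM in DMSO and at 11.6, 13.03 and 10.9 CPM in SKI-II (log2 fold change -2.09, SE 0.14, adjusted p = 1.28e-05). The kinase gene Cdc7 had a log2 fold change of -1.98 (adjusted p = 0.000714), and Ticrr, also known as treslin, one of -1.60 (adjusted p = 5.1e-05). Dbf4, the activating subunit of Cdc7, stood at 58.7, 60.9 and 62.5 CPM in DMSO and at 20.02, 26.7 and 30.7 CPM in SKI-II (log2 fold change -1.23, SE 0.16, adjusted p = 0.000371). No SKI-II library reached a DMSO library in any of the 4.

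The 4 GINS genes, whose products complete the active helicase, fell by unequal amounts. Gins1 stood at 27.5, 30.1 and 25.9 CPM in DMSO and at 4.88, 6.90 and 5.03 CPM in SKI-II (log2 fold change -2.31, SE 0.19, adjusted p = 2.42e-05). Gins2 (log2 fold change -1.81) and Gins4 (-0.89) lay between these extremes. Gins3 stood at 33.1, 37.1 and 38.2 CPM in DMSO and at 21.7, 19.2 and 21.2 CPM in SKI-II (log2 fold change -0.81, SE 0.14, adjusted p = 0.00152). Gins1 thus kept 20.1% of its DMSO mean and Gins3 57.2%. Gins2 shares 67.3% of its exon bases with Gse1 on the opposite strand.

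Polymerase alpha-primase, which lays the RNA-DNA primers, was lower in all 4 subunits, with a median log2 fold change of -1.82. Prim1, the catalytic primase subunit, stood at 34.4, 29.4 and 30.3 CPM in DMSO and at 6.63, 10.2 and 7.11 CPM in SKI-II (log2 fold change -1.97, SE 0.19, adjusted p = 6.67e-05). Pola2, the accessory subunit, stood at 64.1, 56.1 and 41.5 CPM in DMSO and at 23.4, 23.2 and 18.6 CPM in SKI-II (log2 fold change -1.31, SE 0.18, adjusted p = 0.000483). Pola1, the catalytic polymerase subunit, had a log2 fold change of -1.89, and Prim2, the large primase subunit, one of -1.76. The groups were apart in all 4 genes.

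In the 2 polymerases that extend the strands, the catalytic subunit fell most. Pold1 of polymerase delta stood at 184, 192 and 163 CPM in DMSO and at 46.4, 55.9 and 56.6 CPM in SKI-II (log2 fold change -1.76, SE 0.13, adjusted p = 1.5e-05). Pold3, an accessory subunit, stood at 64.2, 61.8 and 59.6 CPM in DMSO and at 33.6, 34.2 and 37.5 CPM in SKI-II (log2 fold change -0.82, SE 0.12, adjusted p = 0.00063). The accessory subunit Pold2 lay between them at -1.42.

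Pole, the catalytic subunit of polymerase epsilon, stood at 109, 103 and 76.5 CPM in DMSO and at 21.5, 23.2 and 21.6 CPM in SKI-II (log2 fold change -2.12, SE 0.15, adjusted p = 1.5e-05). Its partner Pole3, a histone-fold protein, stood at 51.5, 50.1 and 61.8 CPM in DMSO and at 33.3, 38.4 and 37.7 CPM in SKI-II (log2 fold change -0.58, SE 0.14, adjusted p = 0.00795). Pole2 stood at 13.4, 11.97 and 9.20 CPM in DMSO and at 7.11, 7.97 and 7.57 CPM in SKI-II, and its log2 fold change was -0.61 (SE 0.21). Its adjusted p of 0.0405 was the highest among the called members, and the call was lost when any library other than DMSO 3 was left out. The log2 ratio of Pole2 to Pole3 was -2.20 ± 0.42 in DMSO and -2.20 ± 0.05 in SKI-II (SD, n = 3, exact permutation test p = 1).

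The sliding clamp and its loader were lower in all 6 genes, with a median log2 fold change of -1.18. Pcna, the clamp, had the highest level per length of all members in DMSO (147 ± 10.54 CPM per kb) and fell by 1.09 on the log2 scale (SE 0.14, adjusted p = 0.000285). Rfc5 stood at 69.5, 63.4 and 57.9 CPM in DMSO and at 15.1, 18.9 and 17.2 CPM in SKI-II (log2 fold change -1.90, SE 0.14, adjusted p = 1.64e-05). Rfc1, the large subunit of the loader, stood at 133, 115 and 110.2 CPM in DMSO and at 67.7, 65.2 and 63.1 CPM in SKI-II (log2 fold change -0.87, SE 0.12, adjusted p = 0.000479). The subunits of this complex thus fell by different amounts, with Rfc2 at -1.49, Rfc4 at -1.26 and Rfc3 at -0.99 between these 2. The log2 ratio of Rfc4 to Rfc1 was lower by 0.36 in SKI-II (exact two-sided permutation test p = 0.1, the smallest possible, adjusted 0.15).

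Of the 3 subunits of RPA, which coats single-stranded DNA, 2 fell. Rpa2 stood at 46.4, 39.9 and 38.9 CPM in DMSO and at 10.53, 13.5 and 14.8 CPM in SKI-II (log2 fold change -1.69, SE 0.17, adjusted p = 7.02e-05). Rpa1, the large subunit and the most abundant of the 3 per length in both groups (46.3 ± 3.05 CPM per kb in DMSO), fell by 0.76 on the log2 scale. Rpa3, the small subunit, stood at 17.7, 13.6 and 13.02 CPM in DMSO and at 11.4, 12.2 and 10.6 CPM in SKI-II. Every SKI-II library of Rpa3 lay below every DMSO library, but the log2 fold change of -0.38 (SE 0.19) did not pass the test (adjusted p = 0.135). It was the only member to lie apart between groups in the lower direction without a call.

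Both genes of Okazaki fragment maturation fell. Lig1, the ligase that seals the fragments, stood at 218, 209 and 192 CPM in DMSO and at 42.7, 45.3 and 38.7 CPM in SKI-II, and had the smallest adjusted p of the members (log2 fold change -2.29, SE 0.12, adjusted p = 6.9e-06). Fen1, the flap nuclease that trims them, stood at 24.6, 18.8 and 15.9 CPM in DMSO and at 8.44, 8.68 and 6.96 CPM in SKI-II (log2 fold change -1.30, SE 0.21, adjusted p = 0.00106). Fen1 shares 78.8% of its exon bases with the antisense gene Gm10143, which itself had a mean of 0.308 CPM in DMSO and 0.311 CPM in SKI-II. With the strand setting not given, this low count does not settle how the overlap bears on the level of Fen1.

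The 3 histone chaperone genes fell, with a median log2 fold change of -1.90. Asf1b, which hands new histones to CAF-1, stood at 87.5, 80.6 and 61.5 CPM in DMSO and at 15.3, 21.0 and 19.8 CPM in SKI-II (log2 fold change -2.03, SE 0.17, adjusted p = 3.44e-05). Chaf1b, the middle subunit of CAF-1, stood at 49.7, 40.9 and 38.1 CPM in DMSO and at 14.9, 17.7 and 15.9 CPM in SKI-II (log2 fold change -1.41, SE 0.15, adjusted p = 0.000119). Chaf1a, the large subunit, had a log2 fold change of -1.90, and shares 52.5% of its exon bases with Ubxn6 on the opposite strand, which was higher by 0.72 on the log2 scale. The log2 ratio of Chaf1b to Pcna, the clamp that recruits CAF-1, was lower by 0.28 in SKI-II (exact two-sided permutation test p = 0.1, the smallest possible, adjusted 0.15).

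The 4 fork protection genes fell, with a median log2 fold change of -1.60. Clspn, the checkpoint mediator claspin, stood at 97.1, 63.2 and 46.5 CPM in DMSO and at 17.4, 21.2 and 13.9 CPM in SKI-II (log2 fold change -1.98, SE 0.26, adjusted p = 0.000379). Tipin, the partner of Timeless, stood at 50.8, 44.8 and 39.6 CPM in DMSO and at 15.6, 22.1 and 17.8 CPM in SKI-II (log2 fold change -1.28, SE 0.17, adjusted p = 0.000359). Timeless had a log2 fold change of -1.75, and Wdhd1, the scaffold that ties polymerase alpha to the helicase, one of -1.45. The groups were apart in all 4, though the DMSO libraries of Clspn differed widely among themselves.

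**Figure D3:**
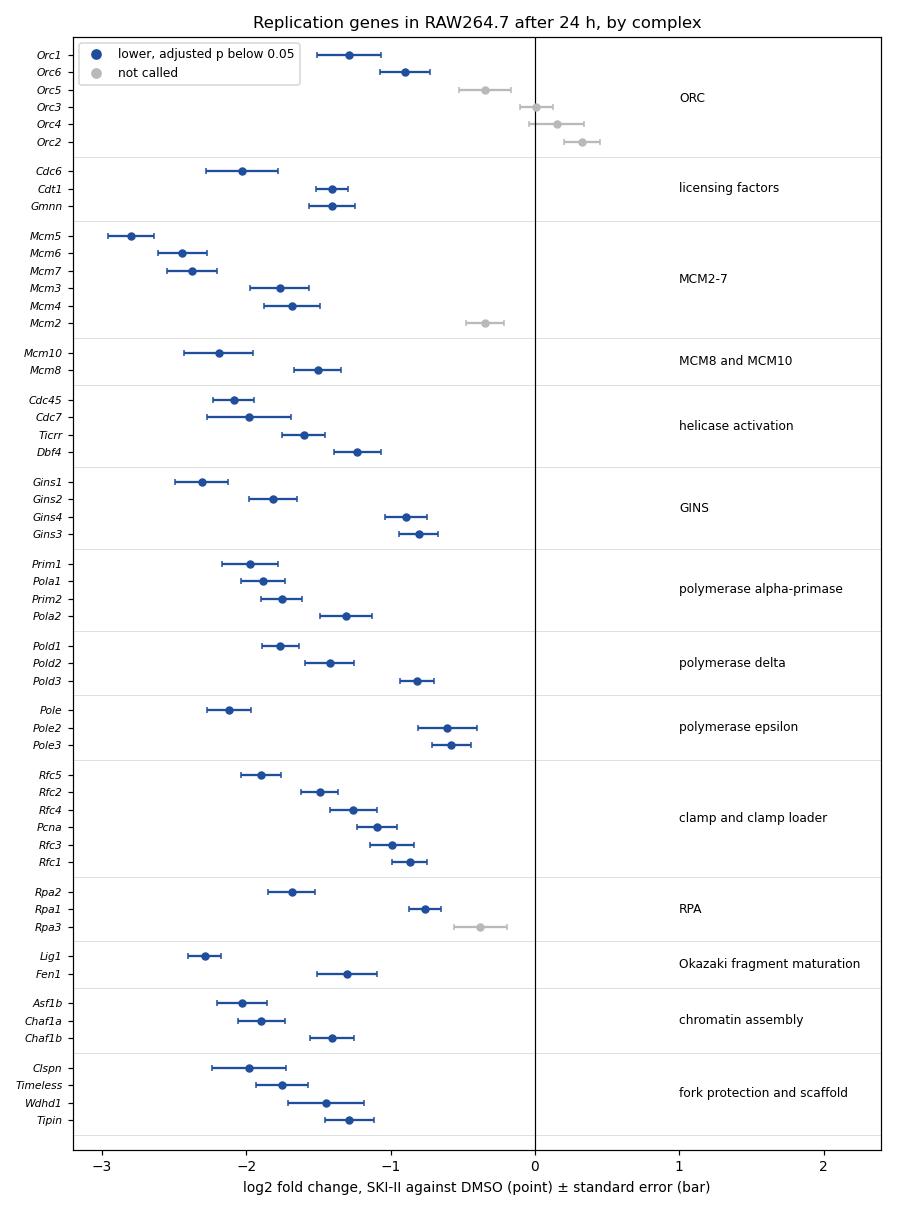
Fitted log2 fold change of each member, SKI-II against DMSO, with its standard error, grouped by complex. The 47 members lower at an adjusted p below 0.05 are dark blue and the 6 not called, of which 4 belong to ORC, are grey.

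Across the 53 members the size of the change was only weakly related to the level in DMSO (Spearman's rho -0.156, Pearson's r -0.173 on log2 values, a description over genes that share the same libraries). Opposite-strand genes overlapped the exons of 17 members, and 8 shared at least 10% of their exon bases with one: Chaf1a, Fen1, Gins2, Orc1, Orc2, Rfc2, Rfc4 and Rfc5. If strand was not used in the counting, reads in the shared parts of these 8 cannot be told apart. Without these 8, 40 of the other 45 members were lower, a count chosen for inspection after the data were seen.

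Several members share a promoter region with a gene that runs the other way, and these pairs were compared because such neighbours lie within the same stretch of chromatin. A protein-coding neighbour on the opposite strand starting at most 1000 bases upstream, or at most 200 bases inside, was found for 14 members, of which 12 were lower. Of 15 neighbours 14 were tested, of which 1 was lower, 3 were higher and 10 were not called, beside 19.7% lower and 18.4% higher among all tested genes, so that the count of higher neighbours was near that of all genes. The median log2 fold change was -1.30 over the 14 members and 0.04 over the 14 neighbours. Gins1 fell by 2.31 on the log2 scale while Abhd12, whose start lies 659 bases away, had a log2 fold change of 0.20 (adjusted p = 0.172). Mcm4 fell by 1.68 beside Prkdc, the DNA-dependent protein kinase, 466 bases away, at 0.30 (adjusted p = 0.271).

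The 3 neighbours that rose were Slc25a40 beside Dbf4 (log2 fold change 0.92, adjusted p = 0.0106), Smyd4 beside Rpa1 (0.80, adjusted p = 0.00413) and Rars2 beside Orc3 (0.56, adjusted p = 0.0314). Slc25a40 and Smyd4 therefore moved against a member that fell, while Orc3 was not called. The neighbour that fell was Vps35, a retromer subunit, beside Orc6 (-0.47, adjusted p = 0.0154). Among the neighbours not called, 2 had lower fitted values than Vps35 with wide errors: Pxmp2 beside Pole at -1.13 (SE 0.46, adjusted p = 0.0733) and 4933430I17Rik beside Pole3 at -0.64 (SE 0.34, adjusted p = 0.165), the latter below Pole3 itself at -0.58. The differences between a member and its neighbour were not tested.

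**Figure D4:**
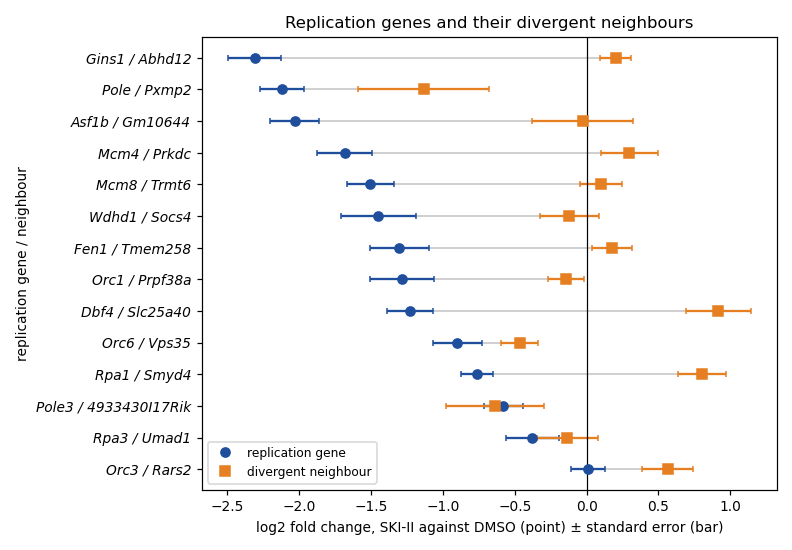
Log2 fold change with its standard error of 14 member and neighbour pairs, the member as a circle and its divergent neighbour as a square. Most squares lie near 0 or to its right while the circles of the members that fell lie to the left, and in Pole3 and Rpa3 the intervals of the pair overlap.

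Other genes of DNA synthesis, from lists written by hand, had median changes nearer to 0. Their counts stand beside 19.7% lower and 18.4% higher among all tested genes. Of 33 other replication genes, 20 were lower and 3 were higher, with a median log2 fold change of -0.90. The lowest was Pclaf, the Pcna-associated factor, at 130.4, 114 and 115 CPM in DMSO and at 14.9, 16.95 and 10.2 CPM in SKI-II (log2 fold change -3.10, SE 0.18, adjusted p = 7.65e-06). The highest was Mcm9, the partner of Mcm8, at 15.9, 15.8 and 15.5 CPM in DMSO and at 32.4, 28.8 and 29.8 CPM in SKI-II (log2 fold change 0.94, SE 0.14, adjusted p = 0.000658). The partners Mcm8 and Mcm9 therefore moved in opposite directions. The other 2 that rose were small accessory subunits of the polymerases whose catalytic genes fell, Pold4 of polymerase delta (0.72, adjusted p = 0.0306) and Pole4 of polymerase epsilon (0.55, adjusted p = 0.00974), and both were named after their values were seen.

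Of 11 translesion and repair polymerase genes, 5 were lower and 1 was higher (median log2 fold change -0.21), the latter below the share of all tested genes, with Poln, polymerase nu, lowest at -1.86 and Polm, the end-joining polymerase mu, highest at 0.80. Of 10 genes of mitochondrial DNA replication, 5 were lower and 0 were higher (median -0.32), from Tfb2m, a mitochondrial transcription factor, at -0.95 to Rnaseh1, which did not pass the test, at 0.53. Of 25 regulators of S phase entry 24 were tested, of which 11 were lower and 2 were higher (median -0.48), again fewer higher than the share of all tested genes. The lowest was the repressor E2f8, which fell by 2.64 on the log2 scale (adjusted p = 1.72e-05). The highest was Myc, at 0.484, 0.630 and 0.494 CPM in DMSO and at 8.09, 5.00 and 2.29 CPM in SKI-II (log2 fold change 3.24, SE 0.52, adjusted p = 0.00094), a low level with a wide spread between the SKI-II libraries.

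**Figure D5:**
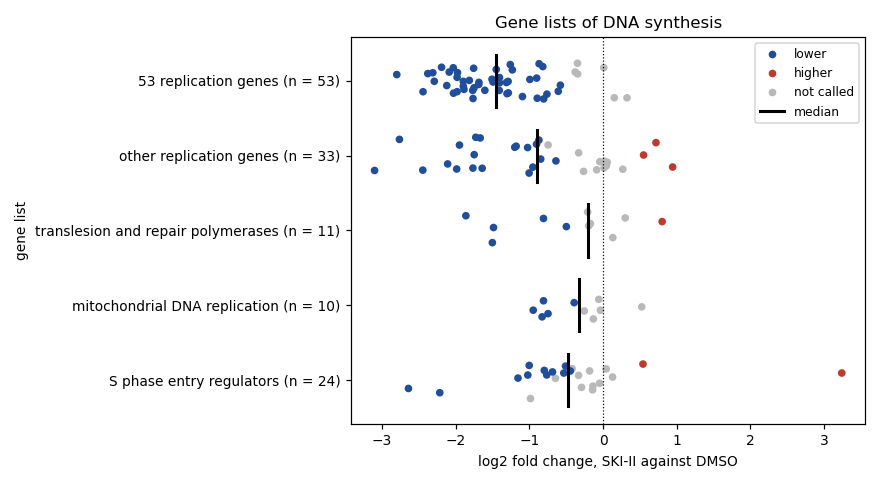
Log2 fold change of every tested gene of the 53 members and of 4 other lists of DNA synthesis genes, each point a gene, blue where lower, red where higher and grey where not called, with the median as a black bar (vertical spread of points is for display only). The members have the lowest median, -1.45, against -0.90, -0.21, -0.32 and -0.48 in the other lists.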

How the data were processed

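RNA of RAW264.7 cells was sequenced in 3 DMSO and 3 SKI-II libraries, grouped by the sample labels. Per the submitters' processing notes, the authors used Trimmomatic 0.36, STAR 2.5.2b, featureCounts of Subread 1.5.2 and DESeq2. The deposited table used here holds raw counts per gene, without normalization, and the genome build, annotation release and strand setting were not given in the sources used here. Names and lengths came from GENCODE M21 (GRCm38), which named 48970 of 49315 genes. Promoters came from RefSeq.

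Counts were tested with edgeR 4.0.16 in R 4.3.3 (TMM scaling, minimum count of 10 and minimum total of 15, quasi-likelihood F test, Benjamini-Hochberg over 12274 genes, with 99.9% of all counts). Ratios used CPM + 0.5. The alternatives were DESeq2 1.42.0, limma-voom 3.58.1, RLE scaling, library size alone, 2 other filters, a pseudocount of 2, the replicate number as a block, and each library left out. On simulated counts for this comparison, with 200 genes changed by 2 on the log2 scale, edgeR recovered 100% over 12125 genes with 10 false calls. The simulation gave every gene the same dispersion and changed only genes above a set level. It therefore does not bear on calls at smaller changes, such as those of Pole2, Mcm2, Orc2 and Orc5. Same-group libraries differed by more than sampling noise (chi-square per degree of freedom 15.4 to 58.1). Figures used matplotlib 3.10.9.

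The members and lists were chosen with earlier results of these data known. In each complex the members with the lowest and the highest log2 fold change, and every member not called or overlapping between groups, were given with the values of every library. Of each other list the lowest and the highest tested gene were named. Features of the proteins were not analysed here.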

Additional observations from a re-analysis of the deposited data

How the results depend on the processing

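The count of 47 lower members stayed at 46 to 49 under the alternatives run over all 53, with no member higher except 1, Orc2, with the replicate number as a block. The other calls that changed were those of Pole2 (lost with library size alone, without the filter and without each library but DMSO 3), Mcm2 (gained with the block and without DMSO 3) and Orc5 (gained with the block and without DMSO 1). With the replicate block 49 members were lower. Equal numbers correlated at 0.26, -0.01 and 0.48, and DMSO 1 correlated best with SKI-II 2, so that the numbers were not taken to pair the libraries. With each library left out in turn, 46 to 48 members were lower, 38 to 39 by more than 1 and 7 to 14 by 2 or more on the log2 scale.

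With the length of the principal transcript in place of all exons, chosen after seeing the data, the rise in the share of Mcm2 was 25.6 percentage points in place of 20.02. With all exons, it was 18.7 to 21.5 percentage points with each library left out. Changes of sign were limited to values near 0. The SKI-II minus DMSO difference in the log2 ratio of Cdt1 to Gmnn went from -0.11 to 0.17 and that of Pole2 to Pole3 from -0.23 to 0.15 with each library left out. The log2 fold change of Orc4 went from -0.028 (without DMSO 1) to 0.27, and that of Orc3 from -0.020 (without SKI-II 3) to 0.033, with -0.0064 without DMSO 2 and -0.015 without DMSO 3. The cause of these changes was not tested. With 3 libraries a group, changes as small as that of Orc2 or Mcm2 lay near the limit of the test.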
